A study of Mus musculus with 23 samples.

Results

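Sox1, Sox4, Sox11, Sox21, Pax6, Pax3, Nes, Hes5, Zic1 and Ncam1 are genes of the early neural program. Their levels were followed in mouse embryonic stem cells kept in a medium for the naive state or placed in FA medium. FA medium drives cells toward epiblast-like cells, but naive markers did not fall equally in all lines. The lines were labelled by RAS (present or deleted) and by the ETS repressor ERF (wild type or knockout). The set was given by name, with earlier results of these data known. All 10 genes were found among the 53607 gene rows of the count table. Of the 10, 8 had enough counts to be tested, and Hes5 and Pax3 stood at or near 0. In FA medium Sox4, Sox11 and Pax6 rose in all 4 lines tested, each a combination of ERF and RAS status. With RAS deleted and ERF wild type, Sox1, Sox4, Sox11 and Zic1 were lower and Sox21 higher in FA than with RAS present. These RAS effects differed in the line labelled ERF knockout, whereas Ncam1 was higher with RAS deleted in both lines.

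The labels give the cells H-Ras-/- and N-Ras-/- alleles, a remaining Ras gene flanked by loxP sites, and Ubiq-CreERT2, a Cre recombinase that 4-hydroxytamoxifen (OHT) activates. All 8 groups, the reference line included, share this labelled Raslox/lox background. Groups combined ERF wild type or ERF knockout with RAS present (no OHT) or RAS deleted (OHT for 6 days), in 2iL or in FA. The 2iL medium combines LIF with inhibitors of MEK and GSK3, and FA holds 12 ng/ml FGF2 and 20 ng/ml Activin A for 48 hours, which drives the cells toward epiblast-like cells. Each group had n = 3 libraries, save for the FA group with RAS present and ERF wild type (n = 2). Every RAS-deleted library had received OHT, and what OHT itself does cannot be told apart from loss of RAS. RAS-present and RAS-deleted cells of the same ERF status thus differ by OHT treatment, although each combination is called a line here. The labels do not say whether a line is 1 clone or whether replicates were separate cultures, so p-values measure the spread between these libraries, which may be technical.

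Neural identity is built in steps. SOX proteins of the B1 group (Sox1, with Sox2 and Sox3) keep neural progenitors in place, Sox21 of the B2 group is known as a repressor that counters them, and Sox4 and Sox11 of the C group act later, as progenitors turn into neurons. Pax6 and Pax3 pattern the neural tube along its back-to-belly axis, Zic1 marks the early neural plate, and Hes5 is a target of Notch that holds progenitors undifferentiated. Nes encodes the intermediate filament nestin of neural progenitors and Ncam1 a neural cell adhesion molecule. FGF signals reach ERK through RAS, and ERK removes ERF from the nucleus.

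On mouse GRCm38 (the submitters' processing notes name mm10; gene models from GENCODE M21), the genes lie on separate loci and all are protein coding. Sox1 spans chr8:12395295-12400126 on the plus strand, Sox4 chr13:28948919-28953713 on the minus strand, Sox11 chr12:27334264-27342574 on the minus strand and Sox21 chr14:118233232-118237030 on the minus strand. Pax6 spans chr2:105668900-105697364 on the plus strand and Pax3 chr1:78101267-78197134 on the minus strand. Nes spans chr3:87971078-87980451 on the plus strand and Hes5 chr4:154960923-154962371 on the plus strand. Zic1 (chr9:91358058-91365810) and Ncam1 (chr9:49502136-49798925) share chromosome 9, both on the minus strand. Sox1 lies inside the long noncoding gene Sox1ot (chr8:12385771-12436768, plus strand), with which it shares 0 exon bases.

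The promoters of Sox21, Sox11 and Hes5 are shown because these genes mark the ends of the pattern: Sox21 and Sox11 moved in opposite directions, and Hes5 was not detectable. They are the 250 bases before the start site in RefSeq's GRCm38.p6 models, which held 9 windows for 8 of the 10 genes (none for Pax3 and Ncam1). The RefSeq start of Sox11 lies upstream of its GENCODE gene model, and the bases just after that start were not found in a GENCODE transcript of Sox11. Capitals mark exact matches, on either strand, to CCGGAAG, a core that ETS factors such as ERF bind, or to GTGGGAA, a core that the Notch effector RBPJ binds.
Sox21 (chr14:118237031-118237280, minus strand): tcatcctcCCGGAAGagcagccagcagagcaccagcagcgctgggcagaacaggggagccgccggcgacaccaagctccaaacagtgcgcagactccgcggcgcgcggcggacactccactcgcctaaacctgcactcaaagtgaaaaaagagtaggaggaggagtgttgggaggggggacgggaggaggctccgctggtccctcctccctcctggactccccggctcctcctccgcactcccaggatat
Sox11 (chr12:27342719-27342968, minus strand): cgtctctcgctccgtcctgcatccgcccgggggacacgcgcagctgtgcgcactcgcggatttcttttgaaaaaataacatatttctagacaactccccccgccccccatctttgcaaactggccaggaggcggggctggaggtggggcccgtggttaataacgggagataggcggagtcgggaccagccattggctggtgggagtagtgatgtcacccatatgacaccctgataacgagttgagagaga
Hes5 (chr4:154960673-154960922, plus strand): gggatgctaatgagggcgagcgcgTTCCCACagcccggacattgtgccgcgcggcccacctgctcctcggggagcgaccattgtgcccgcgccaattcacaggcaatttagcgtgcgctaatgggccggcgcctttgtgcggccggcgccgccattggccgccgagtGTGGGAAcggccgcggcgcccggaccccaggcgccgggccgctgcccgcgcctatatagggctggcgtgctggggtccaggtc
CCGGAAG stood in 6.91% of 32851 such windows genome-wide, and among the windows of these genes in that of Sox21 alone, where the match ends 235 bases before the start. GTGGGAA stood in 5.42% of the windows, and among these genes in that of Hes5 alone, which has matches ending 76 and 219 bases before the start. A match is a description of these letters and not a measured binding site.

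Total counts ran from 16.2 to 29.9 M per library (median 22 M). Erf counts did not fall in libraries labelled ERF knockout (96.1 to 172 CPM in 2iL against 70.6 to 90.2 CPM in the libraries labelled ERF wild type, and 49.3 to 67.9 against 56.5 to 74.5 CPM in FA), so these are called the line labelled ERF knockout throughout. Reads were also assigned to Hras (188 to 743 counts, 12 to 25.9 CPM) and Nras (95 to 1121 counts, 5.32 to 52.3 CPM) in all 23 libraries, although the labels give both as -/-. The level of the remaining Ras gene is not given here, so RAS status rests on the labels. The 4 libraries numbered replicate 1 of the ERF wild-type groups stood apart: genes of chromosome 8 lay 0.243 to 0.371 log2 units above the other chromosomes, against -0.0876 to -0.0122 in the other 19 libraries. Sox1 is on chromosome 8. With RAS present, replicate 1 held 1.59 times (2iL) and 1.03 times (FA) the mean Sox1 level of the other replicates of its group. With RAS deleted it held 0.791 times (2iL) and 0.896 times (FA) that mean. Values without these 4 libraries are given where a gene's call changed, and for some other results. Leaving them out keeps 1 reference library in FA, which is assumed to vary like the other groups. Naive pluripotency markers (10 genes, none at 0 in any group) summed to 3045 to 3725 CPM in the 2iL libraries. Formative epiblast markers (9 genes, none at 0) summed to 127 to 195 CPM in 2iL and to 444 to 1130 CPM in FA, and fibroblast and feeder markers (6 genes) summed to 4.82 to 10.9 CPM, with Col3a1 or Postn at 0 in some groups.

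The 10 genes covered a wide range of levels. Hes5 had 0 to 3 counts in each of the 23 libraries and none at all in 12, so it was not detectable above the floor of 3 counts in any group. Pax3 had 0 to 11 counts, with at most 0.449 CPM, and 9 libraries at or under 3 counts. It stood at 0.396 and 0.379 CPM in the reference line in FA and at 0.07, 0.238 and 0 CPM in 2iL, too low for the test. Zic1 was tested but rested on 1 to 27 counts per library, and its values are the least precise of the 8.

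**Figure D1:**
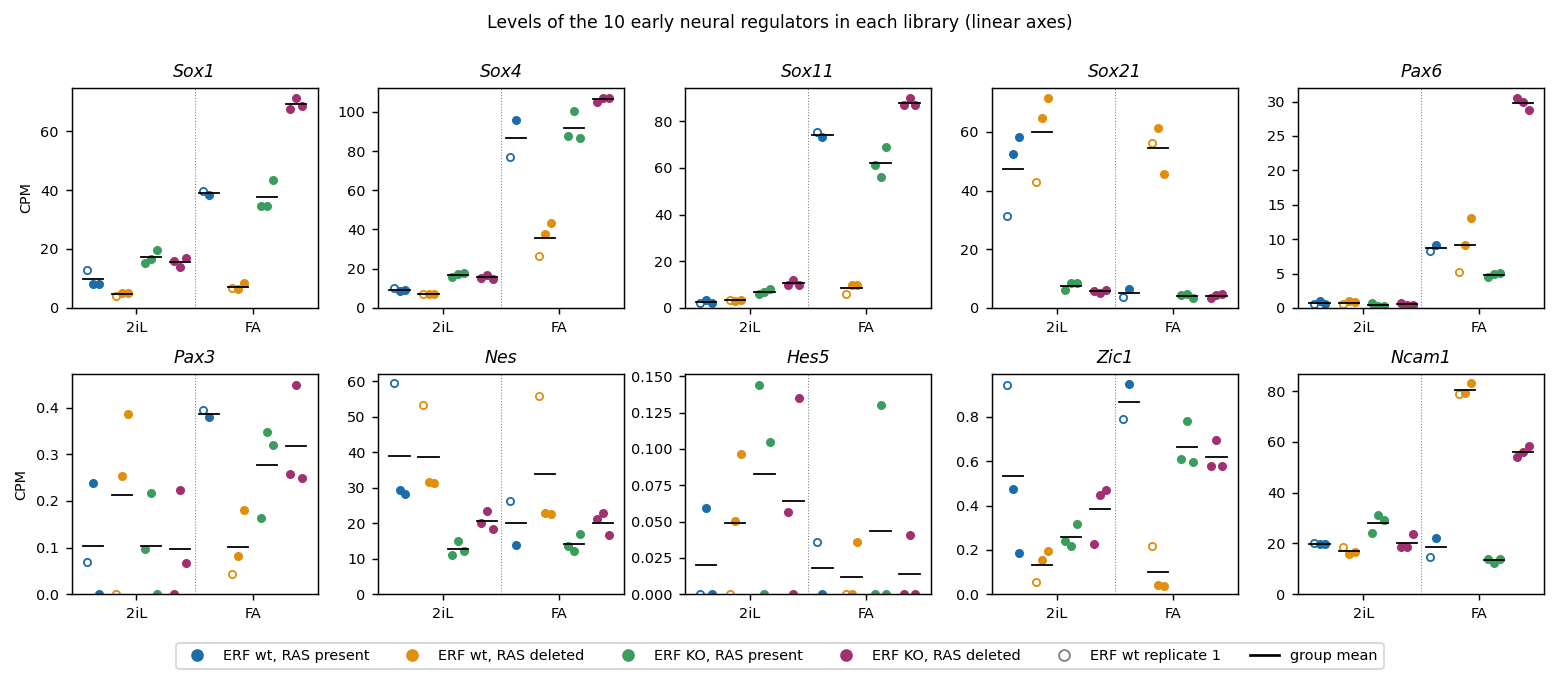
CPM of each gene (linear axes, 1 panel per gene) in every library, with the 8 groups along the horizontal axis, 2iL left and FA right; points are libraries (open for replicate 1 of the ERF wild-type groups) and black lines group means. Sox1, Sox4 and Sox11 are lower in the FA libraries with ERF wild type and RAS deleted than in every other FA library, and Sox21 is higher there.

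With ERF wild type and RAS present (the reference line), FA against 2iL asks how these genes respond when naive cells move toward the epiblast. A gene was called when its adjusted p was under 0.05 and the change was at least 2-fold. Of the 8 genes tested, 4 rose and 1 fell, against 24% of all 20372 genes tested being called in either direction (13.2% higher, 10.8% lower). The median log2 fold change of the 8 was 1.31, against 0.03 over all genes tested. In the same libraries summed naive markers went from 3284 to 3699 CPM in 2iL to 280.5 to 315 CPM in FA (10 of 10 called lower). Formative markers were called higher for 8 of 9 and lower for 1. Primitive endoderm markers went from 103.6 to 109.4 CPM to 179.6 to 298.5 CPM (6 of 8 tested called higher, median 2.51), with Afp at 0, and mesoderm and streak markers from 20.3 to 21.3 CPM to 31.2 to 34.4 CPM (3 higher and 2 lower of 9). Trophoblast markers went from 127.5 to 138.9 CPM to 54.2 to 69.3 CPM (4 higher and 2 lower of 9). The part of these markers in the changes of the 8 genes was not tested. In bulk RNA, fewer cells of a type and less RNA per cell cannot be told apart.

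Sox11, a C-group SOX factor, had the largest rise. It stood at 2.31, 3.39 and 2.14 CPM in 2iL and at 75.3 and 73.1 CPM in FA, a log2 fold change of 4.86 (SE 0.18, edgeR quasi-likelihood adjusted p = 1.21e-14). Libraries of the 2 media did not overlap. Sox4, its close relative, stood at 10.3, 8.69 and 9.15 CPM in 2iL and at 77.0 and 95.8 CPM in FA (log2 fold change 3.19, SE 0.14, adjusted p = 5e-14 by the same test). Both C-group genes were thus high in each FA library.

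Sox1, a B1-group gene and early mark of the neural plate, stood at 12.9, 8.15 and 8.04 CPM in 2iL and at 39.5 and 38.4 CPM in FA (log2 fold change 1.99, SE 0.16, edgeR adjusted p = 8.12e-10). Replicate 1 was the highest of the 2iL libraries but still far under both FA libraries, and the change was 2.23 without the 4 libraries with raised chromosome 8. Pax6 stood at 0.525, 1.07 and 0.557 CPM in 2iL and at 8.35 and 9.14 CPM in FA (log2 fold change 3.66, SE 0.35, edgeR adjusted p = 1.58e-08). Its 2iL levels rested on 12 to 18 counts per library.

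Sox21, the B2-group repressor, went the other way. It stood at 31.2, 52.6 and 58.2 CPM in 2iL and at 3.56 and 6.44 CPM in FA, and fell by 3.26 on the log2 scale (SE 0.31, edgeR adjusted p = 6.47e-08). Ncam1 was level, at 20.1, 19.6 and 19.7 CPM in 2iL and 14.8 and 22.1 CPM in FA (log2 fold change -0.11, SE 0.13, edgeR adjusted p = 0.514; 0.15 without the 4 libraries with raised chromosome 8). Nes and Zic1 were not called (edgeR adjusted p = 0.0736 and 0.286). Without the 4 libraries with raised chromosome 8, which leaves 1 reference library in FA that is assumed to vary like the other groups, both were called, Nes at -1.07 (adjusted p = 0.000711) and Zic1 at 1.54 (adjusted p = 0.026). For Zic1, leaving out replicate 1 in 2iL alone had the same outcome (1.42, adjusted p = 0.0301). Nes was also called without 2iL replicate 3 (-1.15, adjusted p = 0.0483) and without FA replicate 1 (-1.52, adjusted p = 0.0472).

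**Figure D2:**
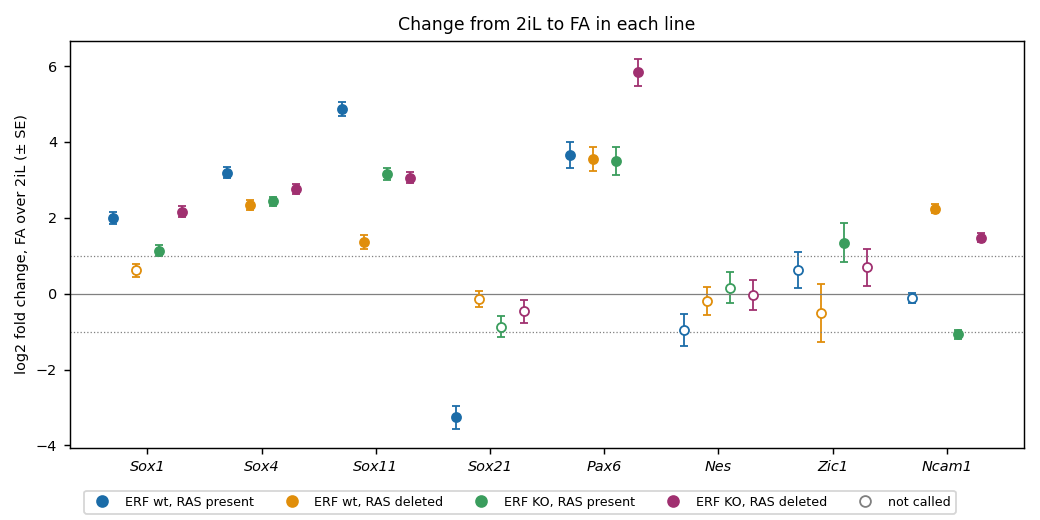
Log2 fold change of FA over 2iL (± SE) for the 8 tested genes in the 4 lines, with open symbols for changes not called and dotted lines at a 2-fold change. Sox4, Sox11 and Pax6 lie above 1 in all 4 lines, and Ncam1 lies on both sides of 0.

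The same medium comparison was made in the other 3 lines, each against its own 2iL group. With ERF wild type and RAS deleted, 4 of 8 genes rose and 0 fell (16.5% of all genes called; 9.96% higher, 6.59% lower). In the line labelled ERF knockout with RAS present, 5 rose and 1 fell (19.7% called; 12.3% higher, 7.46% lower). Where RAS was deleted and ERF labelled knockout, 5 rose and 0 fell (24.9% called; 14.5% higher, 10.4% lower). The 3 genes called higher in all 4 lines were Sox4, Sox11 and Pax6. Beside these changes, 10 of 10 naive markers were called lower in each of the 2 lines labelled ERF knockout, and 5 of 10 with ERF wild type and RAS deleted. Formative markers were called higher for 8 of 9 in each of the 3 lines, and lower for 1 with ERF labelled knockout and RAS present. Primitive endoderm markers were called higher for 3 of 8 with ERF labelled knockout and RAS present, for 2 (1 lower) with RAS deleted too, and for 2 (2 lower) with ERF wild type and RAS deleted. The part of these markers was not tested.

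Sox4 rose by 2.33, 2.44 and 2.77 log2 units in the RAS-deleted line with ERF wild type and, where ERF was labelled knockout, with RAS present and with RAS deleted (edgeR adjusted p = 1.02e-11, 5.95e-13 and 6.79e-14). Sox11 rose by 1.36, 3.15 and 3.06 log2 units in the same order. Its rise was thus smallest where RAS was deleted and ERF was wild type. Pax6 rose by 3.55, 3.49 and 5.83 log2 units, the last of these the largest value of any gene in the set. Its 2iL levels rested on few counts: 10 to 19, 4 to 16 and 7 to 12 per library in the same order. Without replicate 1 of the RAS-present 2iL libraries labelled ERF knockout, the 3.49 became 4.30.

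Sox1 was called in the line labelled ERF knockout, both with RAS present (1.13, SE 0.14, edgeR adjusted p = 9.18e-07) and with RAS deleted (2.16, SE 0.15, adjusted p = 4.06e-11). With ERF wild type and RAS deleted its change was 0.62 (SE 0.17, edgeR adjusted p = 0.00635), under 2-fold. With ERF wild type, the difference between RAS-present and RAS-deleted cells was itself tested. The Sox1 response to FA was lower by 1.37 log2 units with RAS deleted (interaction -1.37, SE 0.24, edgeR adjusted p = 0.000167). Such medium-by-RAS interactions were called for 4 of the 8 genes (11.9% of all genes; 6.6% positive, 5.3% negative). With the 4 raised chromosome 8 libraries left out, 1 reference library remained in FA. The Sox1 interaction was then -1.67, and that of Zic1 was -3.57 against -1.13 with all libraries. Sox11, Sox21 and Ncam1 stood at -3.16, 2.77 and 2.17 without the 4 libraries. Sox4 was called without replicate 3 of the RAS-deleted FA libraries with ERF wild type (-1.02).

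The other interactions called were those of Sox11, Sox21 and Ncam1. The Sox11 response was lower with RAS deleted (interaction -3.50, SE 0.27, edgeR adjusted p = 3.78e-09). For Sox21, the RAS-deleted line showed no called fall: the RAS-deleted libraries held 43.1, 64.8 and 71.6 CPM in 2iL and 56.4, 61.3 and 45.7 CPM in FA (log2 fold change -0.14, edgeR adjusted p = 0.651). Without the raised chromosome 8 libraries this was -0.36 (adjusted p = 0.0408), under 2-fold. The interaction was 3.12 (SE 0.37, edgeR adjusted p = 5.25e-06).

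Ncam1 changed direction between lines. Its interaction was 2.35 (SE 0.18, edgeR adjusted p = 1.87e-09). With ERF wild type and RAS deleted it stood at 18.7, 15.9 and 16.5 CPM in 2iL and at 79.0, 79.4 and 83.1 CPM in FA (log2 fold change 2.24, SE 0.12, edgeR adjusted p = 1.88e-12). Where ERF was labelled knockout and RAS was present it stood at 24.2, 31.1 and 29.1 CPM in 2iL and at 14, 12.2 and 14 CPM in FA, and fell by 1.06 on the log2 scale (edgeR adjusted p = 1.36e-07). That fall was under 2-fold without replicate 2 of its 2iL group (-0.99). With RAS deleted in cells labelled ERF knockout Ncam1 rose, by 1.47 (SE 0.12, edgeR adjusted p = 3.62e-10). Zic1 was called in the RAS-present line labelled ERF knockout alone (1.35, SE 0.51, edgeR adjusted p = 0.0325), on 4 to 18 counts per library. DESeq2 gave 1.37 with an adjusted p of 0.0552, and the call was lost without 2iL replicate 1 (1.29), 2iL replicate 2 (1.24) or FA replicate 2 (1.21).

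The direct comparison of RAS-deleted with RAS-present cells in FA asks how far the FA levels need RAS. With ERF wild type, 2 genes rose and 4 fell of the 8 (17.3% of all genes called; 8.93% higher, 8.33% lower). Sox1 stood at 39.5 and 38.4 CPM with RAS and at 6.66, 6.48 and 8.38 CPM without, and fell by 2.44 on the log2 scale (SE 0.16, edgeR adjusted p = 9.28e-11). Sox11 stood at 75.3 and 73.1 CPM with RAS and at 5.78, 9.89 and 9.67 CPM without, and fell by 3.13 (SE 0.16, edgeR adjusted p = 2.72e-12). Neither gene had overlapping libraries.

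Sox4 fell less, by 1.27 (SE 0.13, edgeR adjusted p = 4.66e-08), from 77.0 and 95.8 CPM to 26.7, 37.5 and 43.4 CPM. Zic1 went from 0.791 and 0.947 CPM to 0.219, 0.0405 and 0.036 CPM, and fell by 3.13 (SE 0.60, edgeR adjusted p = 0.000177), on 1 to 5 counts per RAS-deleted library. Without replicate 1 of the RAS-deleted group the Zic1 value was -4.32, and in FA its ERF difference with RAS deleted and its RAS-by-ERF interaction were 3.83 and 4.21. Sox21 stood at 3.56 and 6.44 CPM with RAS and at 56.4, 61.3 and 45.7 CPM without, and rose by 3.47 (SE 0.31, edgeR adjusted p = 5.16e-08). The repressor was thus high in the same libraries in which Sox1 and Sox11 were low.

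Ncam1 rose by 2.14 (SE 0.14, edgeR adjusted p = 2.77e-11), from 14.8 and 22.1 CPM to 79.0, 79.4 and 83.1 CPM. Pax6 was not called: it stood at 8.35 and 9.14 CPM with RAS and at 5.17, 9.16 and 13.1 CPM without (log2 fold change 0.07, SE 0.27, edgeR adjusted p = 0.866). Its RAS-deleted libraries spanned the RAS-present ones. Without the 4 libraries with raised chromosome 8, 1 reference library remained in FA. The values then were -2.35 for Sox1, -1.23 for Sox4, -2.89 for Sox11, 3.07 for Sox21, -4.43 for Zic1 and 1.90 for Ncam1. Zic1 then rested on 1 count in each remaining RAS-deleted library.

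Other cell states moved with these genes. Summed naive markers were at 1284 to 2061 CPM in the RAS-deleted FA libraries with ERF wild type, against 280.5 to 315 CPM in the reference FA libraries. Primitive endoderm markers (9 genes) summed to 41.0 to 43.8 CPM against 179.6 to 298.5 CPM, with Afp at 0 in the reference group, and formative markers to 444 to 754 against 1102 to 1130 CPM. Of 9 trophoblast markers 3 were called higher and 5 lower (79.4 to 82.2 against 54.2 to 69.3 CPM summed), and of 9 mesoderm and streak markers 2 higher and 3 lower (12.5 to 17 against 31.2 to 34.4 CPM summed). The part of these markers in the results above was not tested.

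**Figure D3:**
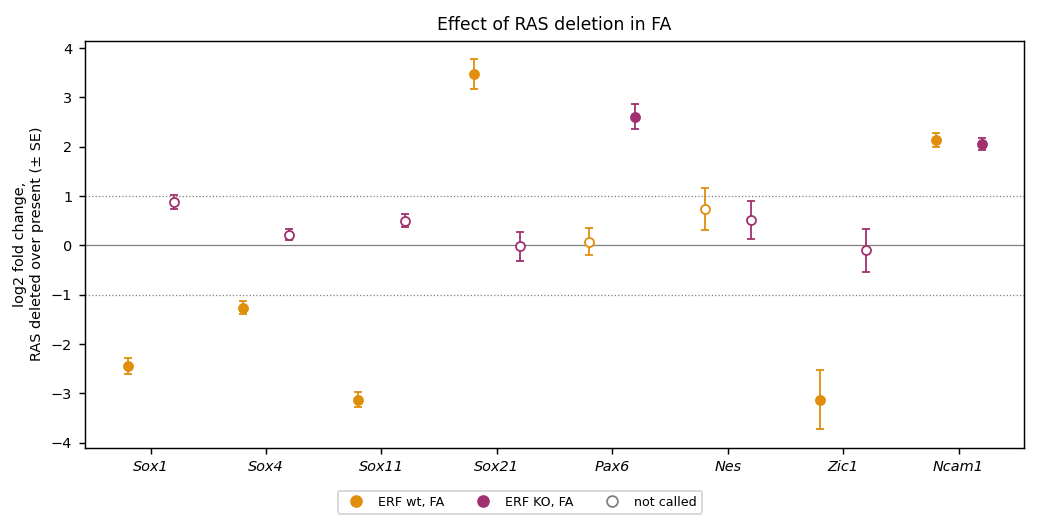
Log2 fold change of RAS deleted over RAS present in FA (± SE) for the 8 tested genes, with ERF wild type and in the line labelled ERF knockout; open symbols were not called and dotted lines mark 2-fold. Sox1, Sox4, Sox11 and Zic1 lie below -1 with ERF wild type alone, and Ncam1 lies near 2 in both lines.

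In the line labelled ERF knockout, RAS deletion in FA raised Pax6 and Ncam1 and lowered 0 of the 8 genes (6.88% of all genes called; 2.81% higher, 4.06% lower). Pax6 stood at 4.57, 4.95 and 5.06 CPM with RAS and between 28.8 and 30.4 CPM in the 3 libraries without, a rise of 2.61 (SE 0.25, edgeR adjusted p = 3.1e-07). No other group exceeded 13.1 CPM of Pax6 in any library. Ncam1 stood at 14, 12.2 and 14 CPM with RAS and at 53.9, 55.9 and 58.2 CPM without (2.06, SE 0.12, edgeR adjusted p = 5.1e-11). Sox1 stood at 34.7, 34.6 and 43.3 CPM with RAS and at 67.4, 71.2 and 68.4 CPM without, a difference of 0.88 (SE 0.14, edgeR adjusted p = 7.45e-05) that stayed under 2-fold. Sox11 differed by 0.50 (SE 0.13, adjusted p = 0.00791). Summed primitive endoderm markers were at 80.8 to 214 CPM without RAS against 284 to 387 CPM with it, and naive markers at 325 to 359 against 258 to 356 CPM. Formative markers were at 921 to 966 against 725 to 795 CPM (3 of 9 called higher, 0 lower), and proneural and neuronal markers at 85.6 to 94.0 against 55.2 to 56.5 CPM (1 higher and 2 lower of 11). The part of these markers was not tested.

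Whether the RAS effect in FA differed between the ERF lines was tested as an interaction (effect in the line labelled ERF knockout minus effect with ERF wild type). It was called for 6 of the 8 genes, 5 positive and 1 negative (13.7% of all genes; 6.29% positive, 7.42% negative). The largest positive values were those of Sox11 (3.63, SE 0.21, edgeR adjusted p = 1.22e-10) and Sox1 (3.31, SE 0.21, adjusted p = 3.54e-10). Zic1 gave 3.03 (SE 0.74, adjusted p = 0.00359), Pax6 2.54 (SE 0.37, adjusted p = 2.06e-05) and Sox4 1.48 (SE 0.17, adjusted p = 1.05e-06). Sox21 gave -3.48 (SE 0.42, edgeR adjusted p = 5.98e-06). Ncam1 gave -0.08 (SE 0.17, adjusted p = 0.794). Its RAS effect was 2.14 in one line and 2.06 in the other. Without the 4 libraries with raised chromosome 8, 1 reference library remained in FA. The 6 interactions then stood at 3.22 for Sox1, 1.44 for Sox4, 3.38 for Sox11, -3.09 for Sox21, 2.31 for Pax6 and 4.32 for Zic1.

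The ERF lines were also compared within FA. With RAS present, 0 of 8 genes were called (2.36% of all genes, 1.58% higher and 0.78% lower; 1 gene, Ncam1, had an edgeR adjusted p under 0.05, at -0.45, adjusted p = 0.0374). DESeq2 called 0 too, and 2 genes, Pax6 and Ncam1, had an unadjusted edgeR p under 0.05. With RAS deleted, 5 were higher and 1 lower in the line labelled ERF knockout (16.6% called; 8.13% higher, 8.48% lower). Sox11 was 3.37 log2 units higher (SE 0.15, edgeR adjusted p = 3.14e-13), Sox1 3.26, Zic1 2.65, Pax6 1.70 and Sox4 1.57. Sox21 stood at 3.51, 4.29 and 4.60 CPM against 56.4, 61.3 and 45.7 CPM with ERF wild type, and was lower by 3.73 log2 units (log2 fold change -3.73, SE 0.26, edgeR adjusted p = 2.39e-09). These 6 were called too without the 4 libraries with raised chromosome 8, Sox1 at 3.22 and Zic1 at 3.83. Summed naive markers were at 325 to 359 CPM in these libraries labelled ERF knockout against 1284 to 2061 CPM with ERF wild type (9 of 10 called lower, median -2.9), and formative markers at 921 to 966 against 444 to 754 CPM (4 of 9 higher, 1 lower). Primitive endoderm markers were at 80.8 to 214 against 41.0 to 43.8 CPM (2 of 8 tested higher), and trophoblast markers at 49.6 to 57.0 against 79.4 to 82.2 CPM (4 higher and 2 lower of 9). The part of these markers was not tested.

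In 2iL, Sox21 was already lower in the line labelled ERF knockout. With RAS present, 1 gene was higher and 2 were lower in the line labelled ERF knockout (9.72% of all genes called; 5.2% higher, 4.52% lower). Sox21 stood at 6.05, 8.39 and 8.36 CPM against 31.2, 52.6 and 58.2 CPM with ERF wild type (-2.64, SE 0.25, edgeR adjusted p = 4.65e-07). Sox11 stood at 5.91, 7.04 and 8.09 CPM against 2.31, 3.39 and 2.14 CPM (1.45, SE 0.19, adjusted p = 8.78e-06). Sox4 and Sox1 were higher by 0.84 and 0.80 log2 units (edgeR adjusted p = 6.17e-05 and 0.000403), under 2-fold. Primitive endoderm markers summed to 248 to 547 CPM against 104 to 109 CPM with ERF wild type (6 of 8 tested called higher). Proneural and neuronal markers summed to 114.6 to 125 against 41.6 to 47.2 CPM (3 higher and 1 lower of 11), trophoblast markers to 72.5 to 88.7 against 127.5 to 139 CPM (2 higher and 3 lower of 9), and 3 of 9 formative markers were called lower. The part of these markers was not tested. The Sox1 value was 1.10, and called, without the 4 libraries with raised chromosome 8, and also without ERF wild-type replicate 1 alone.

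With RAS deleted in 2iL, 3 genes were higher and 1 lower in the line labelled ERF knockout (13% of all genes called; 5.83% higher, 7.15% lower). Sox1 stood at 15.8, 13.7 and 17 CPM against 3.98, 5.12 and 4.94 CPM (1.72, SE 0.17, edgeR adjusted p = 6.3e-08). Sox11 was higher by 1.67 and Sox4 by 1.13. Sox21 stood at 5.75, 5.04 and 6.27 CPM against 43.1, 64.8 and 71.6 CPM (-3.40, SE 0.26, edgeR adjusted p = 1.96e-08). Primitive endoderm markers summed to 130 to 249 against 91.9 to 97.9 CPM in this comparison (2 of 8 tested higher), proneural and neuronal markers to 116 to 132 against 35 to 40.1 CPM (3 higher and 1 lower of 11), and formative markers to 133 to 145 against 189 to 195 CPM (4 of 9 lower). Trophoblast markers summed to 76.4 to 84.7 against 119.3 to 131.3 CPM (2 higher and 3 lower of 9). Mesoderm and streak markers summed to 12.9 to 14.9 against 20.7 to 24.3 CPM (1 higher and 4 lower of 9). Neural crest and placode markers summed to 28.2 to 36.1 against 67.0 to 71.8 CPM (1 higher and 2 lower of 8 tested). The part of these markers was not tested. Sox21 in FA was at 3.51 to 4.65 CPM in the 6 libraries labelled ERF knockout. The medium-by-ERF interaction with RAS present was called for Sox21 (2.39, SE 0.41, edgeR adjusted p = 0.00102) and Sox11 (-1.71, SE 0.24, adjusted p = 0.000104), 2 of 8 genes, against 4.27% of all genes (2.22% positive, 2.05% negative). Without the 4 libraries with raised chromosome 8, 1 reference library remained in FA. The values then were -1.10 for Sox1, 1.23 for Nes and -1.22 for Ncam1, genes not called in the fit with all libraries.

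**Figure D4:**
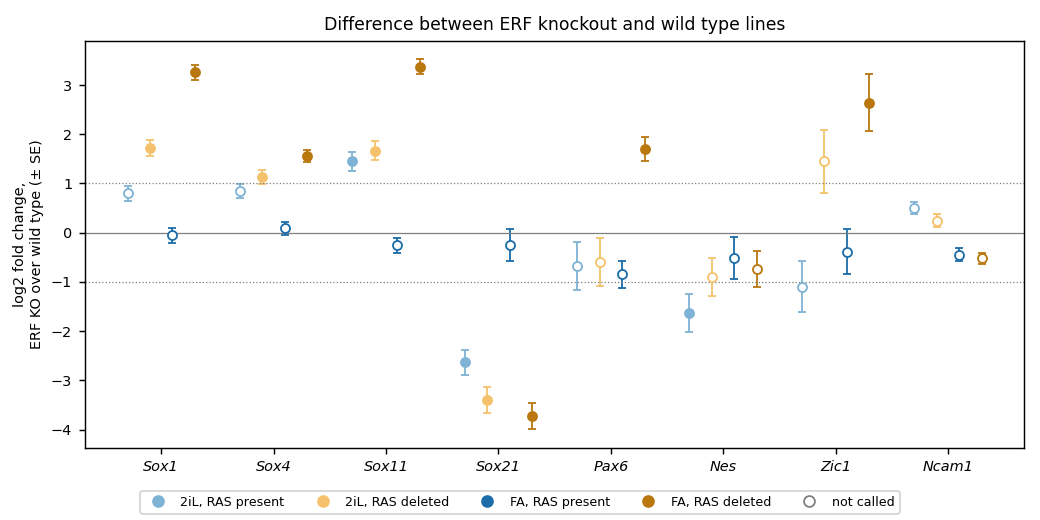
Log2 fold change of the line labelled ERF knockout over ERF wild type (± SE) for the 8 tested genes in the 4 combinations of medium and RAS; open symbols were not called and dotted lines mark 2-fold. Sox21 lies below -2 in 3 of the 4 combinations and near 0 in FA with RAS present.

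Fewer genes of the set were called for RAS deletion in 2iL than in FA. Whether the RAS effect differed between media was tested with ERF wild type alone. With ERF wild type, Sox1 and Zic1 were called lower and no gene higher (1.2% of all genes called; 0.692% higher, 0.506% lower). Sox1 stood at 12.9, 8.15 and 8.04 CPM with RAS and at 3.98, 5.12 and 4.94 CPM without, a fall of 1.07 on the log2 scale (log2 fold change -1.07, SE 0.17, edgeR adjusted p = 0.000919). Zic1 overlapped between the groups, with 0.945, 0.476 and 0.186 CPM against 0.0538, 0.152 and 0.194 CPM (-2.0, SE 0.58, edgeR adjusted p = 0.044). Without the 4 libraries with raised chromosome 8 neither was called: Sox1 was at -0.68 (adjusted p = 0.0276) and Zic1 at -0.85 (adjusted p = 0.557). Leaving out 1 ERF wild-type replicate 1 library in 2iL, with RAS present or deleted, ended the Sox1 call too (-0.79 and -0.97), as it did that of Zic1 (-1.20 and -1.66). Zic1 also lost its call without replicate 2 of either group or replicate 3 of the RAS-deleted group. Replicate numbers paired these libraries, and with replicate as a block 1 gene was called: Sox1 at -1.03 (SE 0.20, edgeR adjusted p = 0.00823), while Zic1 did not pass that fit's count filter.

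In the line labelled ERF knockout, 0 of 8 genes were called for RAS deletion in 2iL (0.211% of all genes, 0.0687% higher and 0.142% lower); 1 gene, Ncam1, had an edgeR adjusted p under 0.05 without the 2-fold minimum (-0.48, adjusted p = 0.049). Replicate numbers paired these libraries, and with replicate as a block 4 genes were under 0.05, each under 2-fold: Nes at 0.69 (edgeR adjusted p = 8.06e-07), Sox11 at 0.58, Ncam1 at -0.49 and Sox21 at -0.42 (adjusted p = 0.0257). DESeq2 called 0 as well, and Sox11 and Ncam1 (2 genes) had an unadjusted edgeR p under 0.05. The RAS-by-ERF interaction in 2iL called 0 of 8 (0.378% of all genes, 0.162% positive and 0.216% negative), with Sox1 at 0.92 (SE 0.23, edgeR adjusted p = 0.0432) the nearest. DESeq2 called 0, and 3 genes (Sox1, Sox21 and Zic1) had an unadjusted edgeR p under 0.05. Leaving out 1 library brought 1 or 2 calls in 3 cases: Sox1 without replicate 2 of the reference line (1.02), Sox1 and Zic1 without its replicate 3 (1.04 and 2.95), and Sox1 without replicate 3 of the RAS-present libraries labelled ERF knockout (1.03).

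Nes, the filament gene, varied within the ERF wild-type groups by replicate. In the 4 ERF wild-type groups replicate 1 held 59.5 CPM (2iL, RAS present), 53.2 CPM (2iL, RAS deleted), 26.3 CPM (FA, RAS present) and 55.7 CPM (FA, RAS deleted). Each exceeded the mean of the other replicates of its group, by 2.06, 1.70, 1.89 and 2.45 times. These are the 4 libraries with raised chromosome 8, while Nes is on chromosome 3. The chromosomes of the set other than 8 lay within -0.0709 to 0.0661 log2 units of the rest in all 23 libraries. The line labelled ERF knockout held 11.1, 15.0 and 12.1 CPM of Nes in 2iL with RAS present against 59.5, 29.5 and 28.1 CPM with ERF wild type, and was lower by 1.63 log2 units (log2 fold change -1.63, SE 0.39, edgeR adjusted p = 0.00529). It was still called without the 4 libraries with raised chromosome 8, at -1.17 (SE 0.16, adjusted p = 2.01e-05). No other Nes change was called in the 12 comparisons by the main test; the FA response of the reference line was called with replicate as a block (-1.14, edgeR adjusted p = 5.59e-05).

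**Figure D5:**
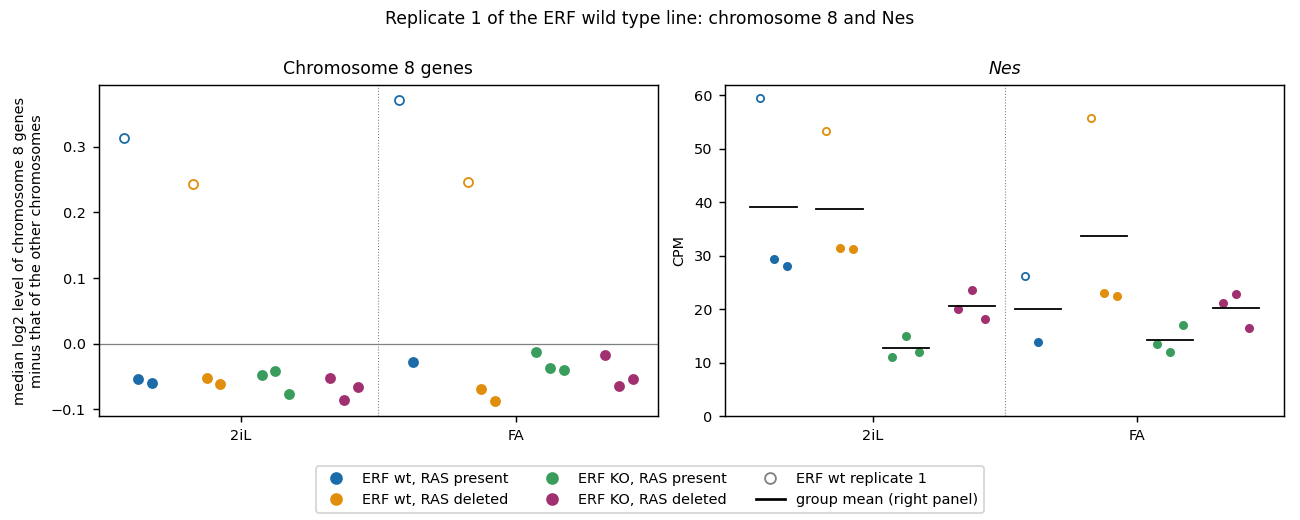
Left, median log2 level of chromosome 8 genes minus that of the other chromosomes in each library; right, Nes in CPM in the same libraries, with group means as black lines. The 4 ERF wild-type replicate 1 libraries (open) sit at 0.243 to 0.371 on the left, where the other 19 lie below 0, and are the highest of their groups on the right.

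Levels between genes can be compared only per length, as in the deposited TPM. In the reference line in 2iL the order began with Sox21 (12.2 TPM), Nes (6.60 TPM) and Ncam1 (5.40 TPM), with Sox1 (1.89 TPM) and Sox4 (1.86 TPM) next and level with each other. The place of Nes rested on replicate 1, at 10.1 TPM against 4.63 and 5.07 TPM in the others, while Ncam1 was at 5.46, 4.98 and 5.76 TPM, so these 2 did not differ beyond their spread. In replicate 1 Sox21 (7.40 TPM) stood below Nes. In the reference line in FA the order began with Sox4 (17.6 TPM), Sox11 (8.67 TPM) and Sox1 (7.96 TPM), and Sox21 had dropped to 1.28 TPM. Sox11 (9.46 and 7.88 TPM) and Sox1 (8.68 and 7.23 TPM) did not differ there beyond their spread. With RAS deleted and ERF wild type in FA the order began with Ncam1 (20.7 TPM) and Sox21 (15.7 TPM), ahead of Sox4 (8.22 TPM). Sox1 was at 1.62 TPM and Sox11 at 1.10 TPM. In FA with RAS deleted and ERF labelled knockout, Sox4 (23 ± 0.886 TPM) led, and Pax6 (15.0 ± 1.06 TPM), Sox1 (14.8 ± 0.518 TPM) and Ncam1 (13.6 TPM) followed (± SD, n = 3). Pax6 and Sox1 did not differ there beyond their spread.

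Other neural genes were read from lists of the same kind of gene, chosen with earlier results of these data in view. Among 30 neural plate and patterning genes, 25 were tested, and in the reference line FA against 2iL gave 7 higher and 9 lower (over all genes 13.2% higher and 10.8% lower), with a median log2 fold change of -0.36 against 0.03 over all genes tested. Pou3f1, a POU factor of the epiblast and neural plate, was higher by 4.42, Sox3, the B1-group partner of Sox1, by 4.22 and Zeb2 by 4.14, while Pou3f3 was at -3.30. Sox2, the B1 factor of pluripotency and of neural progenitors, fell by 1.65 (SE 0.13, edgeR adjusted p = 6.39e-10). On RAS deletion in FA with ERF wild type, 7 were higher and 6 lower of 25 (8.93% and 8.33% of all genes), among them Hesx1 (2.94), Six3 (2.54), Sox2 (1.64), Pou3f1 (-2.70), Prom1 (-2.39) and Sox3 (-1.04). The 3 B1-group genes thus split, with Sox2 higher and Sox1 and Sox3 lower.

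Among 15 relatives of the SOX, PAX and ZIC factors, 13 were tested, and for FA in the reference line 6 were higher and 1 lower (median 1.60), against 13.2% higher and 10.8% lower over all genes. Sox3 (4.22) and Zic2 (1.60) were among those higher. Zic2, the relative of Zic1, was not called for RAS deletion in FA with ERF wild type (0.32, edgeR adjusted p = 0.0441). For that comparison 2 of the 13 were higher and 1 lower, against 17.3% of all genes called.

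Of 17 Notch pathway genes, 16 were tested, and for FA in the reference line 3 were higher and 3 lower (median 0.05), against 24% of all genes called. The ligand Dll1 (2.34) and Hes6 (2.72) were higher. Hes1, a Notch target of the same family as Hes5, was at -1.46 (SE 0.11, edgeR adjusted p = 1.08e-10). On RAS deletion in FA with ERF wild type the receptor Notch1 was higher (1.41) and Hes6 lower (-1.77), 1 gene each way of 16, against 17.3% of all genes called. Of 15 proneural and neuronal genes, 11 were tested, 6 were higher and 0 lower for FA in the reference line (median 1.35; 24% of all genes called), and 2 were higher and 2 lower for RAS deletion in FA with ERF wild type (17.3% of all genes called). In the reference line their summed level was 41.6 to 47.2 CPM in 2iL and 53.6 to 72.2 CPM in FA.

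Sox1ot, the noncoding gene around Sox1, differed from it in what was called. In the reference line its FA over 2iL change was 0.28 (SE 0.26, edgeR adjusted p = 0.39) where Sox1 rose. In the RAS-present line labelled ERF knockout it was 0.03 (adjusted p = 0.933), where Sox1 rose by 1.13. For RAS deletion in FA with ERF wild type Sox1ot was at 0.72 (edgeR adjusted p = 0.0253), under 2-fold and opposite in sign to Sox1. Both genes were called higher for FA over 2iL with RAS deleted and ERF labelled knockout (Sox1ot 1.29, Sox1 2.16). In 2 further comparisons Sox1ot was called higher and Sox1 was not, with the same sign: FA over 2iL with ERF wild type and RAS deleted (1.13 against 0.62) and RAS deletion in FA with ERF labelled knockout (1.22 against 0.88).

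Genes with the closest pattern were read from Pearson's correlation of log2(CPM + 1) over the 23 libraries, which share groups. Predicted genes were passed over, and the rest are given as a description. Closest to Sox1 were Slc38a1 (0.979) and Prom1 (0.974), and to Sox4 Enpp3 (0.991) and Cntfr (0.987). Closest to Sox11 were Igsf9 (0.982) and Hif3a (0.98), and to Sox21 Stxbp5l (0.987) and Glis3 (0.984). Closest to Pax6 were Arid3b (0.983) and Sema3c (0.98), to Ncam1 Tnfrsf21 (0.922) and Card10 (0.918), and to Nes Rab11fip1 (0.926) and Tbx21 (0.912). Zic1 had its closest in Syce2 (0.876) and Fads1 (0.862). Within the set, Sox11 went with Sox4 (0.953) and Sox1 (0.91), Sox21 went against Sox1 (-0.877), and Ncam1 and Sox1 had a correlation of 0.0329.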

How the data were processed

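RNA from 23 mouse embryonic stem cell libraries (75 bp read pairs, ribosomal RNA depleted, stranded, per the labels' protocols) was analysed in 8 groups. The authors deposited estimated counts, TPM and lengths per gene in the columns that Salmon writes, per the file headers. Per the submitters' processing notes the tools were bcl2fastq 2.20.0, fastp 0.20.0 and Salmon, and the build was mm10. A second table deposited by the authors holds the same counts rounded to whole numbers (0 cells differ). Strand use in quantification is not given in the sources used here.

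Here the rounded estimated counts were tested with edgeR 4.0.16 (R 4.3.3): filterByExpr, TMM, and a robust quasi-likelihood test in 1 model of the 23 libraries with a coefficient per group, with Benjamini-Hochberg adjustment over the 20372 genes tested. There were 12 comparisons and 4 interactions. The SE of a log2 fold change was taken from its size over the root of the F statistic. CPM is scaled to the TMM-adjusted library size. Replicates differed by a chi-square per degree of freedom of 3.04 to 44.9 over 22 pairs, so each library counted once. The procedure was tested on simulated data.

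The genes, the lists and the naming rule (all 10 genes everywhere; from other lists up to 4 called genes with the largest change, some genes by interest, and the 2 closest in pattern) were chosen with earlier results of these data known. Alternatives were DESeq2 1.42.0, other size factors, no count filter, no 2-fold minimum, only the compared groups, a replicate block and leaving out single libraries; leaving out 4 libraries with raised chromosome 8 was chosen after seeing the data. Replicate numbers paired the libraries (every same-number correlation above 0.1 over 3 pairs) in the medium comparisons of the 3 lines other than the reference and in both RAS comparisons in 2iL, where they ran from 0.103 to 0.38.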

Additional observations from a re-analysis of the deposited data

Results flagged for a closer look

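The differences below are those in which the effect of 1 factor differed between lines or media by a test of the difference itself (edgeR quasi-likelihood interaction terms, adjusted over all genes tested). The RAS effect in FA differed between the line labelled ERF knockout and ERF wild type for Sox1 (3.31), Sox4 (1.48), Sox11 (3.63), Sox21 (-3.48), Pax6 (2.54) and Zic1 (3.03), in log2 units. Of these, Pax6 is the one whose RAS effect lay near 0 with ERF wild type (0.07) and was a rise of 2.61 in the other line.

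The response to FA differed between RAS-deleted and reference cells with ERF wild type for Sox1 (-1.37), Sox11 (-3.50), Sox21 (3.12) and Ncam1 (2.35). It differed between the line labelled ERF knockout and ERF wild type, with RAS present, for Sox11 (-1.71) and Sox21 (2.39).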

How the results depend on the processing

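Of 112 counts of called genes under the alternatives that leave in all libraries or leave out the 4 with raised chromosome 8, 101 stayed within 1.5 times the reported count and 11 did not, and 0 of 761 called values reversed. Across the 55 gene and comparison pairs called, 51 were called under every alternative that gave them a value; the others were Sox1 and Zic1 for RAS deletion in 2iL with ERF wild type, and Zic1 and Ncam1 for FA against 2iL in the line labelled ERF knockout with RAS present. For RAS deletion in 2iL with ERF wild type, 2 genes became 1 with DESeq2 (Sox1; Zic1 had no adjusted p there), 1 with only the compared groups, 1 with the replicate block and 0 without the 4 libraries; leaving out 1 library gave 0 to 2. Without the 2-fold minimum, RAS deletion in the line labelled ERF knockout went from 0 to 1 in 2iL and from 2 to 4 in FA, the ERF comparison with RAS present from 3 to 6 in 2iL and from 0 to 1 in FA, the RAS-by-ERF interaction in 2iL from 0 to 1 and the medium-by-ERF interaction from 2 to 5. The last also went to 5 without the 4 libraries. Leaving out 1 library gave 0 to 2 for the RAS-by-ERF interaction in 2iL. Without the count filter Pax3 was called for FA in the reference line (2.02, adjusted p = 0.0349) and for the medium-by-RAS interaction (-3.04, adjusted p = 0.04), on at most 11 counts. The cause of these shifts was not tested. The replicate block changed no other call where the numbers paired the libraries. Elsewhere it added Nes for FA in the reference line (-1.14, adjusted p = 5.59e-05), where the libraries share only a number. At this depth Hes5, Pax3 and Zic1 are limited by counts of 0 to 27, and Pax6 in 2iL by 4 to 19.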
